A study of Bos taurus with 15 samples.

Results

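Classical interferon-stimulated genes are the antiviral and signalling genes that type I interferon switches on, and they were followed here across endometrial biopsies from 15 beef heifers (Bos taurus). The members were taken by symbol from a list of 31 genes, without the genes that attach ISG15 to other proteins. Of the 31 symbols, 30 were found among the 32671 gene entries of the deposited table, and all 30 were among the 19962 entries with enough counts to be tested. BST2 (bone marrow stromal antigen 2) had no entry under that symbol. The 2 entries with this description under LOC names were not counted as members and are given in the last section. Endometrium, the lining of the uterus, was sampled on day 14 of pregnancy from 5 heifers classed Infertile, 5 classed Sub-fertile and 5 classed High-fertile. Per the labels' protocols, the cycle of all 15 heifers was synchronised with prostaglandin F, GnRH, an intravaginal progesterone insert, estradiol and progesterone. Heifers that showed no estrus were also given GnRH and estradiol benzoate, and the labels do not say which heifers these were. On day 7 each heifer received an embryo produced in vivo, placed on the side of the corpus luteum. Tissue was cut with biopsy forceps once the uterus had been flushed. The labels do not state the breed or age of the heifers, how they were classed, or whether an embryo was recovered. Each library is labelled as 1 heifer, and SDs within a class are therefore between animals.

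In cattle the elongating conceptus secretes interferon tau, a type I interferon that acts on the uterus and is the signal by which ruminants recognise pregnancy. It binds the receptor chains IFNAR1 and IFNAR2, whose kinases JAK1 and TYK2 phosphorylate STAT proteins. STAT2 and IRF9 are parts of the complex ISGF3, which binds response elements in the promoters of the genes described here. In sheep, the repressor IRF2 keeps many of them silent in the luminal epithelium, so that they are induced mainly in stroma and glands.

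Total counts ranged from 40061511 to 51009815 for Infertile, from 38017136 to 62858724 for Sub-fertile and from 40542008 to 56164970 for High-fertile libraries, and no member had fewer than 93 counts in any library. Levels are given as CPM, read counts scaled by library size and TMM factor, and only FPKM, which is also scaled by gene length, is used to compare one gene with another. Markers of both main tissue compartments were present. The 10 stromal markers (COL1A1, DCN and others) summed to 10140.0 to 39722 CPM in Infertile, 12421 to 29921 CPM in Sub-fertile and 15254 to 25909 CPM in High-fertile libraries. The 10 epithelial markers (EPCAM, KRT18 and others) summed to 1029 to 1755, 647 to 1642 and 983 to 1369 CPM in the same classes. Infertile heifer 2 and High-fertile heifer 1 stood apart from the other 13 libraries in their pseudogene and ribosomal RNA counts, and 5 others (Infertile heifers 3 and 5 and Sub-fertile heifers 1, 2 and 5) formed a set of their own by the same counts. The remaining 8 libraries were Infertile heifers 1 and 4, Sub-fertile heifers 3 and 4 and High-fertile heifers 2 to 5. The labels name no batch, and what separates these sets was not tested. The members called different between the sets are given with the set as a covariate as well.

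High and low heifers for the interferon-stimulated genes occurred within classes. Averaged over the 30 genes, the log2 CPM of a library was highest in Sub-fertile heifer 4 (6.06), High-fertile heifer 5 (5.94), High-fertile heifer 1 (5.93) and High-fertile heifer 2 (5.49). It was lowest in Infertile heifer 1 (4.41), Infertile heifer 2 (4.43) and High-fertile heifer 3 (4.45). The High-fertile class held both kinds, and its heifer 4 ranked 10 of 15, next to Infertile heifer 3 (4.59). Of the Infertile heifers, 4 and 5 were the highest (5.21 and 5.07), and of the Sub-fertile heifers all but 4 lay between 4.53 and 4.86. The class means of these library values were 4.74 ± 0.375 in Infertile, 5.02 ± 0.597 in Sub-fertile and 5.28 ± 0.716 in High-fertile heifers (SD, n = 5 each).

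The same few heifers were high for most of the genes. Sub-fertile heifer 4 had the highest level of 15 of the 30 genes and was among the top 3 libraries for 28. High-fertile heifer 5 was highest for 8 and in the top 3 for 27, and High-fertile heifer 1 was highest for 4 and in the top 3 for 23. At the other end, Infertile heifer 2 was lowest for 8 genes, High-fertile heifer 3 for 7 and Infertile heifer 1 for 5. High-fertile heifer 3 was among the bottom 3 libraries for 20 genes and Infertile heifer 1 for 18. The heat map of the 30 genes shows these heifers as columns of one colour.

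**Figure D1:**
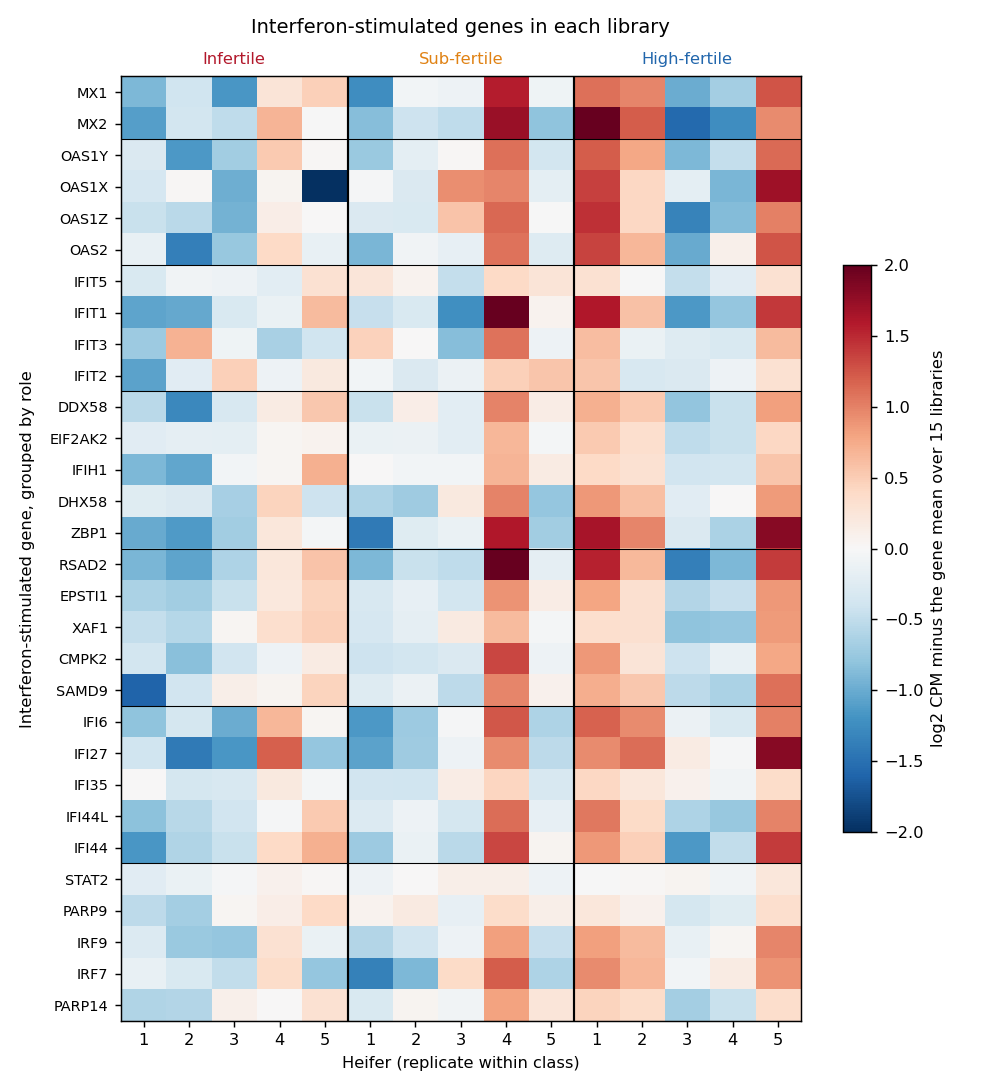
Rows are the 30 interferon-stimulated genes grouped by role and columns are the 15 heifers by class; colour is log2 CPM minus the mean of that gene over the 15 libraries, from blue (lower) to red (higher), and values beyond 2 in either direction share the end colour. Sub-fertile heifer 4 and High-fertile heifers 1, 2 and 5 are red in most rows, and High-fertile heifers 3 and 4 are mostly blue.

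Over the 15 libraries the 30 genes varied together. The Spearman rho of the 435 pairs of members had a median of 0.704, and 154 pairs were above 0.8. These pairs share their libraries and the heifers that are high in most genes, so the values describe the set and are not independent. DDX58 and RSAD2 ranked the heifers most alike (0.989). Against the mean of the other 29 genes, the members with the highest rho were RSAD2 and DDX58 (0.957 and 0.957), EPSTI1 (0.943) and IFI44 (0.929). The lowest were IFIT3 (0.207), IFIT2 (0.461) and OAS1X (0.593). The median within-class SD of log2 CPM was 0.672 over the 30 genes, against 0.321 over the 12092 other tested genes in the same range of mean log2 CPM and 0.425 over all tested genes.

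The dynamin-like GTPases MX1 and MX2, which block viral replication, had wide ranges. MX1 was at 103, 145, 84.9, 228 and 265 CPM in Infertile heifers 1 to 5, at 80.3, 183, 177, 564 and 179 CPM in Sub-fertile heifers 1 to 5 and at 410.4, 376, 95.8, 119 and 454 CPM in High-fertile heifers 1 to 5. Among the High-fertile heifers, 1, 2 and 5 were at least 376 CPM and 3 and 4 at most 119 CPM, and all 3 classes overlapped. The log2 fold change of MX1 was -0.82 ± 0.536 (SE; edgeR adjusted p = 0.536) in Infertile and -0.30 ± 0.532 (SE; edgeR adjusted p = 0.782) in Sub-fertile against High-fertile heifers. With 1 library left out, the Sub-fertile value ran from -0.91 (without Sub-fertile heifer 4) to -0.078 (without Sub-fertile heifer 1). MX2 was at 5.93, 9.79, 8.93, 20.4 and 12.6 CPM in Infertile heifers 1 to 5, at 7.05, 9.45, 8.90, 42.02 and 7.26 CPM in Sub-fertile heifers 1 to 5 and at 85.9, 29.3, 4.32, 5.35 and 24.4 CPM in High-fertile heifers 1 to 5. High-fertile heifer 1 stood above all others, with Sub-fertile heifer 4 next, and MX2 had the widest range of all 30 genes, 19.9-fold over the 15 libraries. Its log2 fold change was -1.37 ± 0.741 (SE; edgeR adjusted p = 0.482) for Infertile and -0.997 ± 0.734 (SE; edgeR adjusted p = 0.477) for Sub-fertile against High-fertile heifers. Without High-fertile heifer 1 these became -0.46 and -0.085. MX2 lies outside the rule by which genes are named here and was picked after its values were seen.

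The OAS enzymes make 2',5'-linked oligoadenylates, which lead to the decay of RNA in infected cells, and cattle carry several OAS1 copies. Reads may have been split between these similar copies, so the level of a single copy is uncertain. Per length, OAS1Y was the most abundant at 63.7 ± 35.6 FPKM (mean ± SD, n = 15), followed by OAS1X at 31.4 ± 21.1, OAS1Z at 9.49 ± 5.58 and OAS2 at 1.75 ± 1.03 FPKM. OAS1Y was at 76.4, 42.1, 57.7, 135 and 95.2 CPM in Infertile heifers 1 to 5, at 56.1, 82.1, 95.1, 202 and 72.7 CPM in Sub-fertile heifers 1 to 5 and at 217, 159.7, 50.5, 67.6 and 204 CPM in High-fertile heifers 1 to 5. As for MX1, Sub-fertile heifer 4 and High-fertile heifers 1, 2 and 5 were above all others, and the classes overlapped. The log2 fold change of OAS1Y was -0.78 ± 0.446 (SE; edgeR adjusted p = 0.499) for Infertile and -0.46 ± 0.444 (SE; edgeR adjusted p = 0.586) for Sub-fertile against High-fertile heifers, and with 1 library left out the Sub-fertile value ran from -0.87 (without Sub-fertile heifer 4) to -0.25 (without High-fertile heifer 1). OAS2, named here after its values were seen, had -0.98 ± 0.460 for Infertile against High-fertile (SE; edgeR adjusted p = 0.452), at 4.19 ± 1.80 CPM in Infertile and 8.28 ± 4.43 CPM in High-fertile heifers.

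OAS1X was low in 1 heifer whose other OAS1 copies were not. OAS1X was at 20.7, 26.7, 13.4, 27.3 and 4.52 CPM in Infertile heifers 1 to 5, at 25.9, 21.5, 49.7, 51.9 and 22.9 CPM in Sub-fertile heifers 1 to 5 and at 67.6, 34.9, 22.98, 13.97 and 84.6 CPM in High-fertile heifers 1 to 5. Infertile heifer 5, which was sixth of the 15 libraries in the mean of the set, held the least OAS1X of all, while its OAS1Y and OAS1Z ranked sixth and seventh. OAS1X made up 4.0045% of the counts of the 3 OAS1 copies in that library (exact 95% binomial interval 3.45% to 4.63%, counting error only), against 15.4% to 34.3% in the other 14. The share of OAS1X had a median of 19.4% over all 15 libraries, OAS1Y ranged from 54.1% to 84.3% and OAS1Z from 6.57% to 11.9%. OAS1X was 1 of the 3 genes with the smallest p for Infertile against both other classes, with log2 fold changes of -1.27 ± 0.519 (SE; edgeR adjusted p = 0.439) against High-fertile and -0.89 ± 0.515 (SE; edgeR adjusted p = 0.998) against Sub-fertile heifers. Without Infertile heifer 5 they were -1.02 and -0.64. OAS1Z had -0.64 ± 0.463 (SE; edgeR adjusted p = 0.998) for Infertile against Sub-fertile heifers, at 10.6 ± 3.12 and 16.5 ± 7.85 CPM, and -0.33 without Sub-fertile heifer 4.

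The IFIT proteins bind viral RNA and halt its translation, and IFIT3 and IFIT2 had the lowest rho with the rest of the set. IFIT5 was the most abundant per length (35.5 ± 6.87 FPKM, mean ± SD, n = 15) and IFIT2 the least (2.05 ± 0.582 FPKM). IFIT5 was at 89.6, 105, 103, 94.9 and 136 CPM in Infertile heifers 1 to 5, at 130.1, 116, 79.6, 146 and 132 CPM in Sub-fertile heifers 1 to 5 and at 136, 109.96, 78.98, 93.99 and 136 CPM in High-fertile heifers 1 to 5. Its range over the libraries was only 1.85-fold, against 10.3-fold for IFIT1, which reached 247 CPM in Sub-fertile heifer 4. IFIT3 was at 7.48, 20.02, 11.6, 7.88 and 9.37 CPM in Infertile heifers 1 to 5, at 16.9999, 12.4, 6.85, 26.3 and 11.5 CPM in Sub-fertile heifers 1 to 5 and at 18.9, 11.3, 10.3, 10.03 and 19.1 CPM in High-fertile heifers 1 to 5. Infertile heifer 2 had the second highest IFIT3 of all libraries, although it held the least DDX58, CMPK2, OAS1Y, OAS2, IFI27, IFIH1, PARP9 and EPSTI1. IFIT2 was at 2.58, 4.59, 7.52, 5.04 and 6.21 CPM in Infertile heifers 1 to 5, at 5.20, 4.42, 4.98, 7.49 and 7.92 CPM in Sub-fertile heifers 1 to 5 and at 7.89, 4.31, 4.41, 5.01 and 6.67 CPM in High-fertile heifers 1 to 5. For IFIT2 the highest library was Sub-fertile heifer 5, and the classes overlapped. The log2 fold changes for Infertile against High-fertile heifers were -0.069 ± 0.185 for IFIT5, -0.95 ± 0.647 for IFIT1, -0.30 ± 0.357 for IFIT3 and -0.12 ± 0.284 for IFIT2 (SE; edgeR adjusted p from 0.547 to 0.894). For Sub-fertile against High-fertile heifers they were 0.12 ± 0.185, -0.15 ± 0.641, 0.089 ± 0.357 and 0.086 ± 0.283 in the same order. Leaving out 1 library turned the sign of IFIT2 and IFIT5 for Infertile and of IFIT2 and IFIT3 for Sub-fertile against High-fertile heifers. For Infertile against High-fertile heifers IFIT3 ran from -0.61 (without Infertile heifer 2) to -0.16 (without High-fertile heifer 5).

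Among the sensors of foreign nucleic acid, DDX58 (RIG-I), IFIH1 (MDA5) and DHX58 (LGP2) are RNA helicases, EIF2AK2 (PKR) is a kinase activated by double-stranded RNA and ZBP1 binds Z-form nucleic acid. DDX58 was the most abundant of them per length, at 19.8 ± 8.39 FPKM (mean ± SD, n = 15). DDX58 was at 48.9, 29.1, 56.4, 79.2 and 103 CPM in Infertile heifers 1 to 5, at 51.9, 77.7, 60.8, 141 and 78.5 CPM in Sub-fertile heifers 1 to 5 and at 116, 102, 40.8, 51.7 and 126 CPM in High-fertile heifers 1 to 5. Infertile heifer 5, at 103 CPM, lay with High-fertile heifer 2, and Infertile heifer 2 was the lowest of all. Its log2 fold change was -0.46 ± 0.378 (SE; edgeR adjusted p = 0.605) for Infertile and -0.087 ± 0.377 (SE; edgeR adjusted p = 0.915) for Sub-fertile against High-fertile heifers. Leaving out 1 library gave DDX58 values from -0.71 (without Infertile heifer 5) to -0.28 (without Infertile heifer 2) for Infertile and from -0.38 (without Sub-fertile heifer 4) to 0.082 (without High-fertile heifer 5) for Sub-fertile heifers. ZBP1 was at 3.41, 3.15, 4.24, 8.04 and 6.72 CPM in Infertile heifers 1 to 5, at 2.59, 5.84, 6.28, 20.9 and 4.23 CPM in Sub-fertile heifers 1 to 5 and at 21.6, 13.6, 5.63, 4.42 and 24.3 CPM in High-fertile heifers 1 to 5. Sub-fertile heifer 4 and High-fertile heifers 1 and 5 were above 20 CPM and the classes overlapped. ZBP1 had the largest negative log2 fold change of the 30 genes for Infertile against High-fertile heifers, -1.44 ± 0.578 (SE; edgeR adjusted p = 0.439), and -0.80 ± 0.570 (SE; edgeR adjusted p = 0.464) for Sub-fertile against High-fertile. The Sub-fertile value of ZBP1 ran from -1.55 (without Sub-fertile heifer 4) to -0.50 (without High-fertile heifer 5) with 1 library left out. IFIH1, DHX58 and EIF2AK2, given without the sets of libraries as a covariate, had log2 fold changes of -0.26, -0.67 and -0.22 for Infertile against High-fertile heifers.

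RSAD2 (viperin) and CMPK2 are neighbouring genes whose products act on nucleotides, and viperin makes a chain-terminating nucleotide that stops viral polymerases. RSAD2 was at 20.003, 18.2, 24.6, 43.98 and 55.99 CPM in Infertile heifers 1 to 5, at 20.3, 27.8, 26.4, 207 and 33.4 CPM in Sub-fertile heifers 1 to 5 and at 109.9, 59.4, 14.7, 20.2 and 99.7 CPM in High-fertile heifers 1 to 5. Sub-fertile heifer 4 was far above the rest of its class, followed over all libraries by High-fertile heifers 1 and 5. Its log2 fold change was -0.90 ± 0.698 (SE; edgeR adjusted p = 0.587) for Infertile and 0.053 ± 0.692 (SE; edgeR adjusted p = 0.974) for Sub-fertile against High-fertile heifers. Without Sub-fertile heifer 4 the second value was -1.17, and without High-fertile heifer 1 it was 0.38. The Infertile value was -0.57 without High-fertile heifer 1. CMPK2 was at 30.1, 21.5, 29.7, 35.996 and 43.2 CPM in Infertile heifers 1 to 5, at 29.1, 30.01, 31.7, 97.4 and 36.02 CPM in Sub-fertile heifers 1 to 5 and at 70.1, 46.2, 29.1, 34.7 and 66.3 CPM in High-fertile heifers 1 to 5. The log2 fold change of CMPK2 was -0.48 ± 0.352 (SE; edgeR adjusted p = 0.998) for Infertile against Sub-fertile heifers, and 0.032 without Sub-fertile heifer 4. XAF1, which antagonises an inhibitor of apoptosis, and EPSTI1 and SAMD9 had log2 fold changes of -0.11, -0.45 and -0.53 for Infertile against High-fertile heifers.

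**Figure D2:**
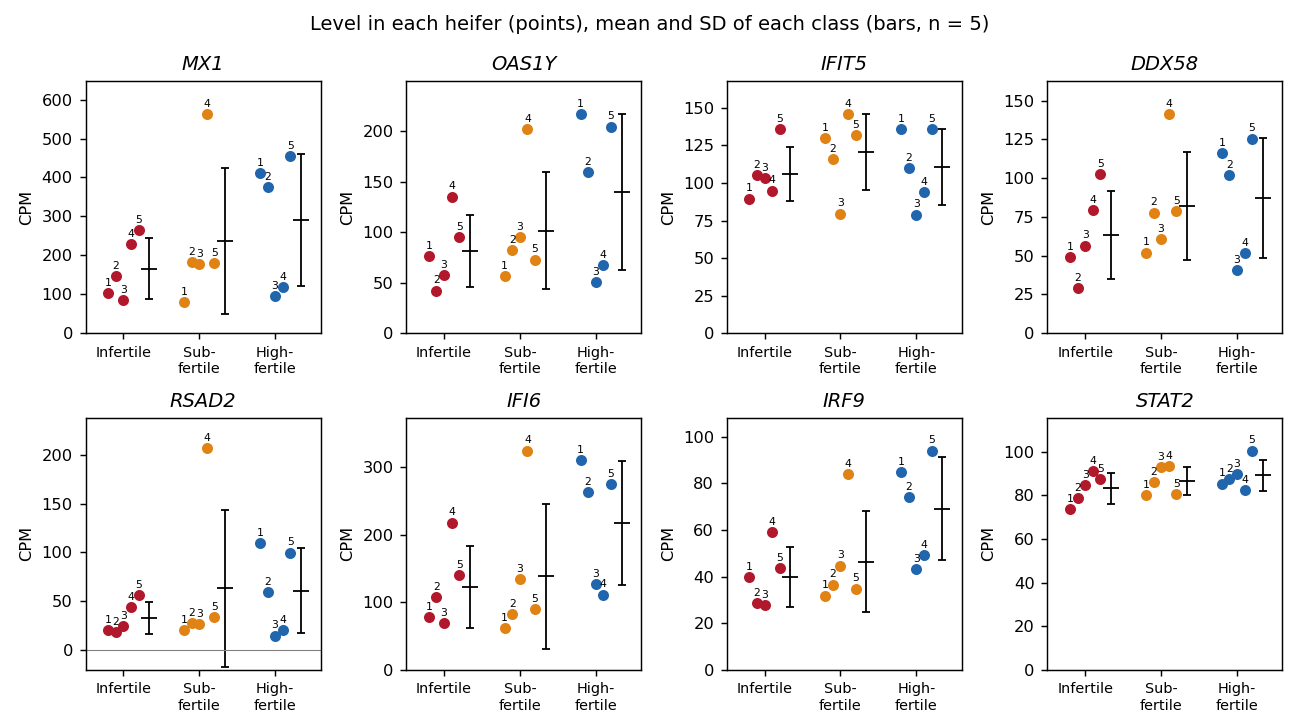
Each panel gives 1 gene in CPM on a linear axis; points are heifers numbered by replicate within the Infertile, Sub-fertile and High-fertile classes, and the horizontal mark with its bar is the mean ± SD of the class (n = 5). High-fertile heifers 1, 2 and 5 lie above High-fertile heifers 3 and 4 for every gene drawn but STAT2, and Sub-fertile heifer 4 lies above the rest of its class.

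IFI6, a small membrane protein that restricts flavivirus replication, was the most abundant member per length at 169 ± 97.4 FPKM (mean ± SD, n = 15), followed by IFI27 at 108 ± 78.5 FPKM. IFI6 was at 78.1, 107, 69.2, 218 and 141 CPM in Infertile heifers 1 to 5, at 61.6, 83.1, 134, 325 and 89.7 CPM in Sub-fertile heifers 1 to 5 and at 311, 263, 127, 111 and 275 CPM in High-fertile heifers 1 to 5. The highest libraries were Sub-fertile heifer 4 and High-fertile heifers 1, 5 and 2, and the log2 fold change was -0.83 ± 0.459 (SE; edgeR adjusted p = 0.493) for Infertile and -0.65 ± 0.458 (SE; edgeR adjusted p = 0.462) for Sub-fertile against High-fertile heifers. Without Sub-fertile heifer 4 the Sub-fertile value of IFI6 was -1.24. IFI27 was at 52.5, 25.996, 30.8, 158 and 40.2 CPM in Infertile heifers 1 to 5, at 33.01, 42.2, 64.2, 133 and 47.9 CPM in Sub-fertile heifers 1 to 5 and at 133, 149, 77.5, 68.2 and 243 CPM in High-fertile heifers 1 to 5. Here Infertile heifer 4 was second of all libraries, behind High-fertile heifer 5. IFI27 had the smallest p of the members for Sub-fertile against High-fertile heifers, with -1.07 ± 0.524 (SE; edgeR adjusted p = 0.362), and -1.13 ± 0.525 (SE; edgeR adjusted p = 0.451) for Infertile against High-fertile. Without Infertile heifer 4 the value for Infertile against High-fertile was -1.83. IFI35 was at 20.3, 15.8, 16.2, 23.1 and 19.6 CPM in Infertile heifers 1 to 5, at 15.5, 15.2, 22.2, 27.2 and 16.2 CPM in Sub-fertile heifers 1 to 5 and at 26.8, 23.5, 21.4, 19.3 and 25.98 CPM in High-fertile heifers 1 to 5. IFI35 varied little, 1.79-fold over the libraries, with log2 fold changes of -0.30 ± 0.181 (SE; edgeR adjusted p = 0.515) for Infertile and -0.28 ± 0.181 (SE; edgeR adjusted p = 0.428) for Sub-fertile against High-fertile heifers (-0.44 for Sub-fertile without its heifer 4). IFI44 and IFI44L lie beside each other in the genome, ranked the heifers alike (rho of 0.918) and had log2 fold changes of -0.55 and -0.58 for Infertile against High-fertile heifers.

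Of the signalling members, STAT2 and IRF9 are parts of ISGF3, IRF7 amplifies the interferon response, and PARP9 and PARP14 are ADP-ribosyltransferase family proteins. STAT2 was at 73.8, 78.6, 84.9, 91.1 and 87.6 CPM in Infertile heifers 1 to 5, at 80.3, 86.1, 92.95, 93.5 and 80.5 CPM in Sub-fertile heifers 1 to 5 and at 85.4, 87.6, 89.8, 82.4 and 101 CPM in High-fertile heifers 1 to 5. STAT2 was the steadiest of the 30 genes, with a range of 1.36-fold over the 15 libraries, and its log2 fold changes were -0.100 ± 0.0927 (SE; edgeR adjusted p = 0.649) for Infertile and -0.041 ± 0.0926 (SE; edgeR adjusted p = 0.833) for Sub-fertile against High-fertile heifers. Leaving out 1 library gave STAT2 values from -0.13 (without High-fertile heifer 4) to -0.053 (without High-fertile heifer 5) for Infertile and from -0.072 (without Sub-fertile heifer 4) to 0.0062 (without High-fertile heifer 5) for Sub-fertile heifers. IRF9 was at 39.8, 28.7, 27.9, 59.1 and 43.6 CPM in Infertile heifers 1 to 5, at 31.8, 36.5, 44.7, 84.2 and 34.9 CPM in Sub-fertile heifers 1 to 5 and at 84.8, 74.04, 43.2, 49.2 and 94.1 CPM in High-fertile heifers 1 to 5. IRF9 had the smallest p of the members for Infertile against High-fertile heifers, where Infertile heifers 1, 2, 3 and 5 were at most 43.6 CPM and the lowest High-fertile heifer, 3, was at 43.2 CPM. Its log2 fold change was -0.79 ± 0.304 (SE; edgeR adjusted p = 0.439) for Infertile and -0.57 ± 0.303 (SE; edgeR adjusted p = 0.370) for Sub-fertile against High-fertile heifers, the second being -0.90 without Sub-fertile heifer 4. With the 3 sets of libraries as a covariate the values for IRF9 were -0.57 and -0.32. PARP9 and PARP14 had -0.11 and -0.19 for Infertile against High-fertile heifers.

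Over the 30 genes, Infertile heifers had the lowest mean level, and no gene passed the test. Against High-fertile heifers all 30 members had a negative log2 fold change in Infertile heifers, where 46.5% of all tested genes did. The members vary together, so these are not 30 independent directions. The median was -0.60 over the members, with a range of -1.44 to -0.07, against 0.04 over all tested genes. In the edgeR quasi-likelihood test 0 of the 30 passed an adjusted p of 0.05, where 0% of the 19962 tested genes did, with adjusted p from 0.439 to 0.904. At an unadjusted p under 0.05, 5 members (16.7%) were lower in Infertile heifers, IRF9, ZBP1, OAS1X, IFI27 and OAS2, beside 3.89% of all genes. None (0 of 30) was higher, beside 7.14% of all genes, and 11.0% of all genes were at this level in either direction. In 0 members did the Infertile heifers lie wholly below the High-fertile ones, which 1.10% of all genes did, and in 0 wholly above, which 1.13% did. Leaving out 1 library gave 0 to 9 members at an unadjusted p under 0.05. There were 0 without High-fertile heifer 5, 9 without Infertile heifer 4, 9 without Sub-fertile heifer 4 and 9 without High-fertile heifer 3. Over all genes the counts were 1423 of 20138, 2768 of 20158, 2436 of 20154 and 1588 of 20155 in the same order. Without High-fertile heifer 4 there were 7 members, beside 1904 of 20145 genes. Without Sub-fertile heifer 1 there were 6, beside 2190 of 20232 genes. Leaving out any other library gave 1 to 3 members, beside 1287 to 3346 genes. With 1 library left out, 28 to 30 members were negative, and 25 were without High-fertile heifer 1 and Infertile heifer 2 together. The median of the members stayed negative with 1 library left out, between -0.77 and -0.43. With the sets as a covariate it was -0.44 and within the 8-library set -0.36. At an unadjusted p under 0.05 there were 0 members in either, beside 1529 of 19962 and 904 of 20577 genes.

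Sub-fertile heifers had a mean between those of the other classes, with heifer 4 far above the other 4. Against High-fertile heifers 23 of the 30 members had a negative log2 fold change, beside 49.0% of all tested genes, with a median of -0.21 against 0.01 over all genes. By edgeR 0 members passed (0% of all genes, with adjusted p of the members from 0.362 to 0.974), and 0 were at an unadjusted p under 0.05, beside 13.7% of all genes (7.14% lower and 6.58% higher). The classes overlapped in all 30 members, where 2.81% of all genes lay wholly lower in Sub-fertile heifers and 2.26% wholly higher. Without Sub-fertile heifer 4 the median was -0.61, beside 0.008 over all genes, and 28 members were negative. At an unadjusted p under 0.05 there were then 11 members, still with 0 past the adjusted threshold. Over all genes 4678 of 20154 were at this level in that fit, against 2738 of 19962 with all 15 libraries. Without High-fertile heifer 1 or 5 the median of the members was -0.05 or -0.01. Within the 8-library set, which leaves Sub-fertile heifers 3 and 4 and High-fertile heifers 2 to 5, the median was 0.29 and only 2 of 30 members were negative.

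**Figure D3:**
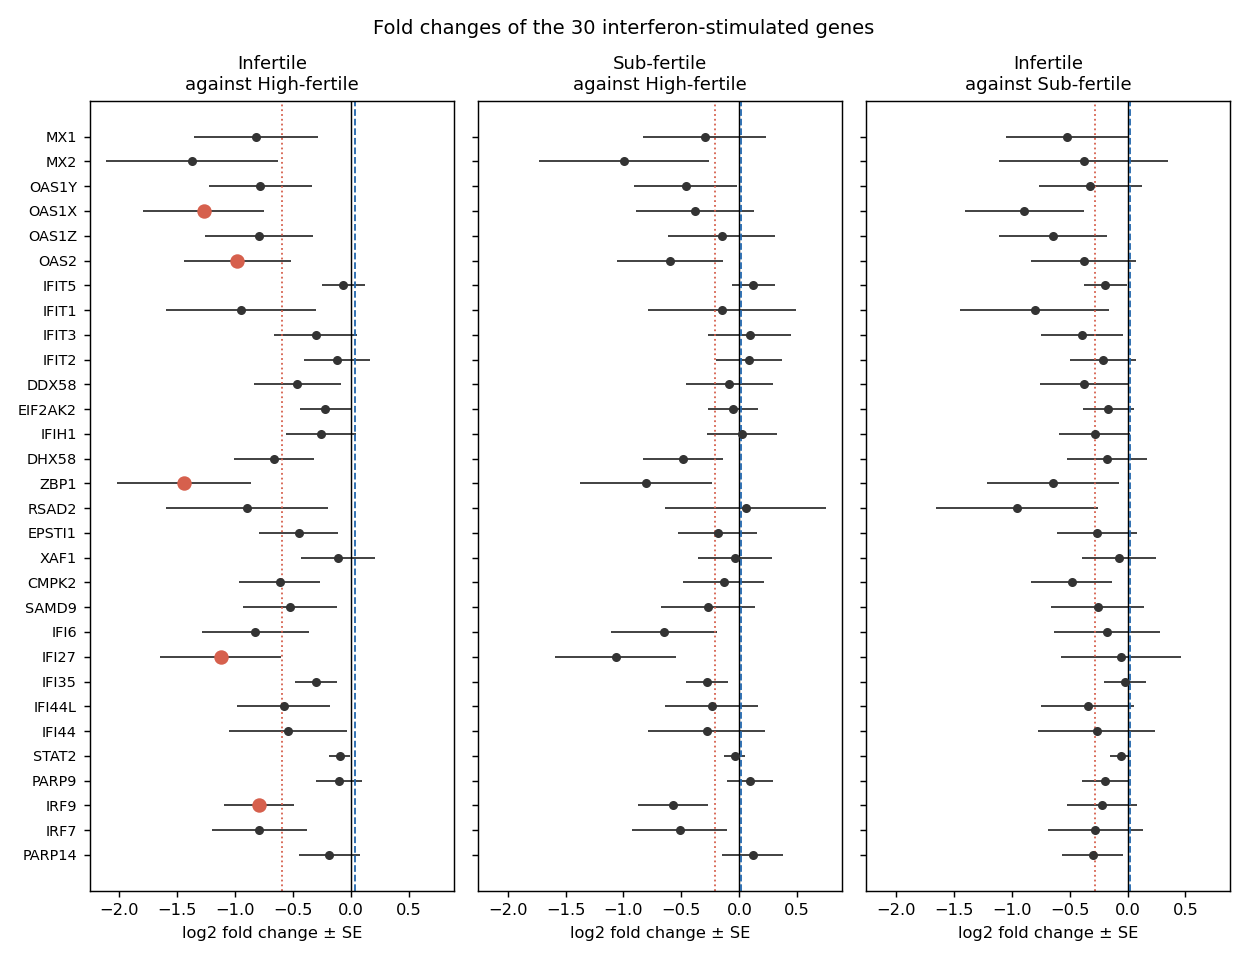
Points are log2 fold changes with their SE for the 30 genes in the 3 comparisons, with genes at an unadjusted p under 0.05 in red; the dotted line is the median of the 30 genes and the dashed line that of all tested genes. Every gene lies below 0 for Infertile against High-fertile heifers (median -0.60), and no gene is marked in red in the other 2 panels.

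Between Infertile and Sub-fertile heifers all 30 members had a negative log2 fold change, beside 45.3% of all genes, a direction that did not hold without Sub-fertile heifer 4. The median was -0.28, against 0.03 over all genes, and 0 members passed by edgeR (0% of all genes; adjusted p of 0.998 for each member) or were at an unadjusted p under 0.05 (2.63% of all genes, 0.721% lower and 1.91% higher). The classes overlapped in all 30 members, where 0.0852% of all genes lay wholly lower and 0.120% wholly higher in Infertile heifers. Without Sub-fertile heifer 4 the median was 0.06, and 10 of 30 members were negative. The comparisons against High-fertile heifers share those 5 libraries, and all 3 share the estimate of the spread. In the test of any difference among the 3 classes 0 members passed (0% of all genes), and 1, or 3.33%, was at an unadjusted p under 0.05, beside 8.42% of all genes. DESeq2 and limma-voom also passed 0 members in each comparison, while over all genes they passed 34 and 1 for Infertile against High-fertile, 18 and 0 for Sub-fertile against High-fertile, and 11 and 1 for Infertile against Sub-fertile.

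**Figure D4:**
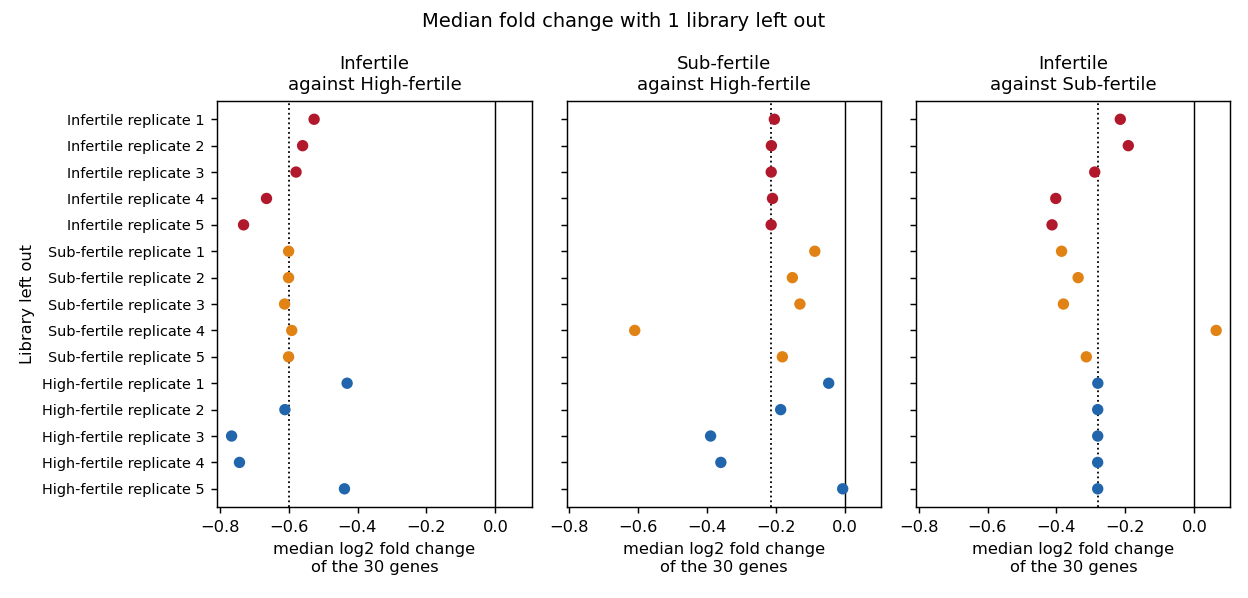
Each point is the median log2 fold change of the 30 genes when the library named on the left is left out, coloured by the class of that library; the dotted line is the median with all 15 libraries and the solid line is 0. Leaving out Sub-fertile heifer 4 moves the median to -0.61 for Sub-fertile against High-fertile and to 0.06 for Infertile against Sub-fertile heifers.

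Some members differed between the sets of libraries, though a smaller share of them than of all genes. With class in the edgeR model, 4 of the 30 genes (13.3%) were lower in the 5-library than in the 8-library set at an adjusted p under 0.05 and 0 were higher, beside 17.6% of all genes lower, 13.1% higher and 30.7% in either direction. The 4 genes were IRF7, DHX58, IFI35 and IFI27. IRF7 lay between 10.3 and 18.5 CPM in the 5-library set and between 21.1 and 60.4 CPM in the other 10 libraries, with a log2 fold change of -1.21 ± 0.296 against the 8-library set (edgeR adjusted p = 0.00795). DHX58 lay between 16.03 and 20.5 CPM in the 5-library set and between 22.3 and 54.2 CPM elsewhere (-0.94 ± 0.271; edgeR adjusted p = 0.0186). For both genes the 5-library set did not overlap the other 10 libraries, although Infertile heifer 5 in that set was among the 3 highest libraries for IFIH1 and PARP9. IFI35 and IFI27 had log2 fold changes of -0.42 ± 0.146 and -1.26 ± 0.447 (edgeR adjusted p = 0.0465 and 0.0496). DHX58 and IRF7 also ranked the 15 heifers alike, with a rho of 0.950. The 5-library set holds no High-fertile heifer, and set and class are partly confounded. With the set as a covariate the log2 fold change of IRF7 was -0.32 for Infertile and -0.038 for Sub-fertile against High-fertile heifers, against -0.79 and -0.51 without it. For DHX58 the values were -0.30 and -0.056 with the set as a covariate, against -0.67 and -0.49 without it. For IFI27 they were -0.85 and -0.63, against -1.13 and -1.07. For IFI35 they were -0.14 and -0.086, against -0.30 and -0.28. All 8 values were nearer to 0 with the set in the model. IRF7 and DHX58 were singled out after their values were seen.

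**Figure D5:**
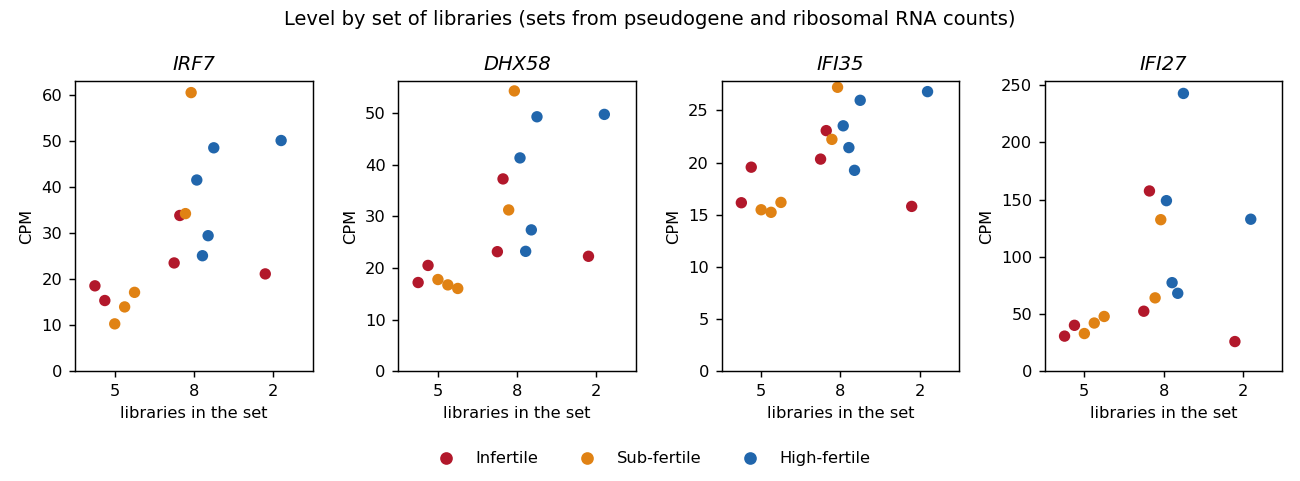
Each panel gives 1 gene in CPM on a linear axis by set of libraries, 5, 8 or 2 libraries to a set, with each heifer coloured by class. For IRF7 and DHX58 all 5 libraries of the first set lie below the other 10, and the set holds 2 Infertile, 3 Sub-fertile and no High-fertile heifers.

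Markers of some other cell types were also at lower levels outside the High-fertile class, although none passed the adjusted threshold by edgeR. Over all genes, 46.5% had a negative log2 fold change and 3.89% were lower at an unadjusted p under 0.05 in Infertile against High-fertile heifers, and 49.0% and 7.14% in Sub-fertile against High-fertile. All 8 endothelial markers (PECAM1, CDH5 and others) were negative in both comparisons, 4 at an unadjusted p under 0.05 in Infertile and 3 in Sub-fertile heifers. Their summed levels were 691 to 1024, 707 to 1068 and 852 to 1579 CPM in Infertile, Sub-fertile and High-fertile libraries. Of the 10 macrophage and monocyte markers (CD14, CSF1R and others) 8 were negative in Infertile heifers, 1 of them at this level, and 10 in Sub-fertile heifers, 5 of them at this level, with summed levels of 81.9 to 231, 89.2 to 126 and 123 to 253 CPM. The 8 B cell markers were negative in both comparisons, 7 of them at this level in each, with median log2 fold changes of -2.53 in Infertile and -2.73 in Sub-fertile heifers. Their summed levels were 3.42 to 7.28 CPM in Infertile, 3.30 to 6.37 CPM in Sub-fertile and 6.71 to 11.5 CPM in High-fertile heifers 2 to 5, and High-fertile heifer 1 stood apart at 62.1 CPM. Of the 10 T and NK cell markers 8 were negative in each comparison, 1 at this level in Infertile and 2 in Sub-fertile heifers, and 1 was higher at this level in Infertile heifers. Their summed levels were 40.6 to 55.3, 30.5 to 52.1 and 49.6 to 60.9 CPM. The 8 smooth muscle markers had medians of 0.073 in Infertile, with 3 negative, and -1.06 in Sub-fertile heifers, with 8 negative, and 0 were at this level in either. Their summed levels spread widely, over 568.2 to 24499, 608 to 6021 and 846 to 11926 CPM. The 24499 CPM was in Infertile heifer 1, the lowest library in the mean of the 30 members. The 11926 CPM was in High-fertile heifer 1, among the highest in that mean. Of these markers only PAX5 was at 0 in a library, in 1 of 15. High-fertile heifer 3, among the lowest for interferon-stimulated genes, had summed endothelial and macrophage markers of 1114 and 175 CPM, both second in its class. High-fertile heifer 5, among the highest, had the largest endothelial sum, 1579 CPM. Over the 15 libraries, the mean log2 CPM of endothelial and macrophage markers had a Spearman rho of 0.421 and 0.207 with that of the 30 members. For B cell, T and NK cell and smooth muscle markers the rho was 0.011, 0.068 and -0.075. For epithelial and stromal markers it was 0.479 and -0.171. The part of these cells in the lower levels was not tested, and in bulk tissue fewer cells of a type and less RNA per cell cannot be told apart.

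Of the 10 genes of the receptor, its kinases and their feedback, 1 was lower and 0 higher at an unadjusted p under 0.05 in Infertile against High-fertile heifers, and 0 were lower and 1 higher in Sub-fertile against High-fertile. Over all genes 11.0% and 13.7% were at this level in either direction, so these counts are near the background. The gene lower in Infertile heifers was TYK2 (-0.22 ± 0.102 on the log2 scale, with the SE), and the one higher in Sub-fertile heifers was PIAS1 (0.35 ± 0.155), a SUMO ligase. IFNAR1 was at 103 ± 13.4 CPM in Infertile and 95.2 ± 9.19 CPM in High-fertile heifers, and IFNAR2 at 40.6 ± 8.06 and 47.6 ± 6.94 CPM (SD, n = 5 each).

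Among the 7 other interferon regulatory factor genes, IRF3, which is activated by the RNA sensors, was the 1 gene lower at an unadjusted p under 0.05 in both comparisons with High-fertile heifers, beside 3.89% of all genes lower in Infertile and 7.14% in Sub-fertile heifers. A single gene of 7 is near the 11.0% and 13.7% of all genes at this level in either direction. Its log2 fold change was -0.54 ± 0.174 for Infertile and -0.54 ± 0.174 for Sub-fertile against High-fertile heifers (edgeR adjusted p = 0.435 and 0.360). IRF1, an early target of interferon, had -0.49 ± 0.237 and -0.46 ± 0.236, and the repressor IRF2 -0.042 ± 0.171 and 0.054 ± 0.171. IRF8 was the 1 gene of the 7 higher at an unadjusted p under 0.05 in Infertile against Sub-fertile heifers (0.95 ± 0.427; edgeR adjusted p = 0.998). Over all genes 1.91% were higher at this level and 2.63% differed in either direction.

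ISG15 is a ubiquitin-like protein that interferon induces, and 6 genes of its conjugation pathway were tested. UBE2L6, the conjugating enzyme, and UBA7, the activating enzyme, were lower at an unadjusted p under 0.05 in Infertile against High-fertile heifers, beside 3.89% of all genes. Their log2 fold changes were -0.69 ± 0.241 and -0.85 ± 0.383. Of the 6 genes 5 were negative, beside 46.5% of all genes. ISG15 was at 12.6 ± 8.01 CPM in Infertile and 44.9 ± 38.7 CPM in High-fertile heifers, which gives -1.84 ± 0.903 on the log2 scale (edgeR adjusted p = 0.461). In Sub-fertile against High-fertile heifers 5 of the 6 were also negative, beside 49.0% of all genes. UBE2L6 alone was at an unadjusted p under 0.05 there (-0.52 ± 0.241), beside 7.14% of all genes lower.

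Of 13 adaptors, kinases and effectors downstream of the sensors, 1 (TRIM25, which ubiquitinates RIG-I, at -0.40 ± 0.179) was lower and 0 higher at an unadjusted p under 0.05 in Infertile against High-fertile heifers, beside 3.89% of all genes lower, and their median was 0.052. Of 18 tested genes of interferon gamma, antigen processing and guanylate binding, 0 passed this level in Infertile against High-fertile heifers, beside 11.0% of all genes. Their median was -0.078 and 12 were negative, beside 46.5% of all genes. In Sub-fertile against High-fertile heifers 2 of the 18 were lower, CIITA, the master regulator of MHC class II, at -0.66 ± 0.254 and PSMB10, an immunoproteasome subunit, at -0.50 ± 0.228. Beside 7.14% of all genes lower and 13.7% in either direction, this count is near the background. None of these pathway genes passed the adjusted threshold by edgeR.

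Transcripts of interferon tau, of 4 trophoblast products and of the transcription factor CDX2 were scarce, while TFAP2C of the trophoblast list had more counts. IFNT2, an interferon tau gene, had 570 counts over the 15 libraries and at most 74 in 1, and its log2 fold change was -0.14 ± 0.421 for Infertile and -0.0073 ± 0.420 for Sub-fertile against High-fertile heifers. Interferon tau genes are near-identical copies, so the source of these counts is uncertain. Of other type I interferon genes, IFNB1 had 787 counts over the 15 libraries, IFNE 661, IFNAC 127, IFNK 79 and IFNB3 0. The trophoblast products PAG2, PAG11, TKDP1 and TKDP2 had 13, 0, 0 and 1 counts over all 15 libraries. Among the transcription factors of the list, CDX2 had 91 counts, in 8 libraries and at most 24 in 1. ELF5 had 785 and TFAP2C 3627, with counts in all 15 libraries. For a gene at 0, the limit is 3 counts, or 0.0492 to 0.0783 CPM depending on the library (counting error only).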

How the data were processed

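RNA from 15 endometrial biopsies was sequenced from stranded mRNA libraries, per the labels' protocols. The deposited table gives read counts per gene and FPKM, which also divides by gene length. The submitters' processing notes name FastQC, Subread, featureCounts, edgeR and the UMD3.1 build. Tool versions, strand setting and treatment of multimapping reads: not given in the sources used here. Members and gene lists were chosen with earlier results of these data known. The deposited counts, totals 38017136 to 62858724, were tested in R 4.3.3 with edgeR 4.0.16: filterByExpr by class, TMM factors, and 1 robust quasi-likelihood model with a mean per class (12 residual degrees of freedom), adjusted by Benjamini-Hochberg over 19962 genes at 0.05. The deposited FPKM values only compare levels between genes. Log2 CPM used a prior count of 2. Average-linkage clustering of 372 tested pseudogene and ribosomal RNA entries, without the class, gave the sets of 8, 5 and 2 libraries. Named members were the most abundant per role by FPKM, the 3 with the smallest p per comparison and the 3 with the lowest rho. Alternatives were RLE factors or library size alone, no filter, DESeq2 1.42.0, limma-voom (limma 3.58.1), only the 10 libraries compared, the sets as a covariate, the 8-library set alone, 2 libraries left out together and each library left out. The fit was tested on simulated data. Values of single genes outside the member list are in part not reported here. Gene neighbours come from the ARS-UCD2.0 assembly, used for names and order alone, where 28 of the 31 symbols matched.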

Additional observations from a re-analysis of the deposited data

Results flagged for a closer look

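In 15 of the 30 genes Sub-fertile heifer 4 stood so far above the other 4 heifers of its class that the gap passed the 95% critical value of Dixon's test. It was at 97.4 CPM for CMPK2 (others 29.1 to 36.02), 99.6 CPM for EIF2AK2 (others 53.9 to 60.9), 26.1 CPM for IFI44 (others 6.27 to 10.7), 34.7 CPM for IFI44L (others 12.5 to 14.98), 325 CPM for IFI6 (others 61.6 to 134), 67.4 CPM for IFIH1 (others 40.6 to 47.5), 247 CPM for IFIT1 (others 24.1 to 59.6), 84.2 CPM for IRF9 (others 31.8 to 44.7), 564 CPM for MX1 (others 80.3 to 183), 42.02 CPM for MX2 (others 7.05 to 9.45), 202 CPM for OAS1Y (others 56.1 to 95.1), 10.8 CPM for OAS2 (others 2.72 to 4.86), 207 CPM for RSAD2 (others 20.3 to 33.4), 44.4 CPM for SAMD9 (others 15.8 to 24.04) and 20.9 CPM for ZBP1 (others 2.59 to 6.28). Infertile heifer 4 stood apart in the same way for IFI27, at 158 CPM against 25.996 to 52.5 CPM in the other 4 Infertile heifers. In all, 16 of 90 pairs of gene and class were picked out, all on the high side, and the 30 genes are not independent of each other. The rule was applied to CPM without a log scale, and the share picked out over all genes was not computed. No chance rate is therefore set beside this count. No High-fertile heifer was picked out.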

How the results depend on the processing

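Across the alternatives 0 of the 30 members passed the adjusted threshold in any comparison. By DESeq2 the number of genes past the adjusted threshold was 18 for Sub-fertile against High-fertile, 34 for Infertile against High-fertile, 11 for Infertile against Sub-fertile and 34 for any difference among the 3 classes. Without High-fertile heifer 1 and Infertile heifer 2 together the number of genes past the adjusted threshold was 3 for Sub-fertile against High-fertile. By limma-voom the number of genes past the adjusted threshold was 1 for Infertile against High-fertile, 1 for Infertile against Sub-fertile and 1 for any difference among the 3 classes. By DESeq2 the number of members at an unadjusted p under 0.05 was 1 for Sub-fertile against High-fertile and 4 for any difference among the 3 classes. Of all 19962 genes 3310 and 2324 were at this level. By limma-voom the number of members at an unadjusted p under 0.05 was 1 for Sub-fertile against High-fertile and 2 for Infertile against High-fertile. For any difference among the 3 classes it was 2. Of all 19962 genes 2758, 2047 and 1483 were at this level in the same order. With only the 10 libraries compared the number of members at an unadjusted p under 0.05 was 1 for Sub-fertile against High-fertile. Beside it were 4535 of 19412 genes. With the sets as a covariate the number of members at an unadjusted p under 0.05 was 0 for Infertile against High-fertile and 1 for Infertile against Sub-fertile. Of all 19962 genes 1529 and 349 were at this level. Without High-fertile heifer 1 and Infertile heifer 2 together this number was 0 for Infertile against High-fertile and 0 for any difference among the 3 classes. Of all 20155 genes 2631 and 1605 were at an unadjusted p under 0.05. Within the 8-library set the number of members at an unadjusted p under 0.05 was 0 for Infertile against High-fertile and 0 for any difference. Of all 20577 genes 904 and 1073 were at this level. With all 15 libraries the edgeR counts at an unadjusted p under 0.05 were 5 of 30 for Infertile against High-fertile, 0 for both other comparisons and 1 for any difference. By limma-voom the log2 fold change changed sign for Sub-fertile against High-fertile in OAS1Z (0.18) and RSAD2 (-0.099). With the sets as a covariate the log2 fold change changed sign for Sub-fertile against High-fertile in CMPK2 (0.030), IFIT2 (-0.041), OAS1X (0.38) and OAS1Z (0.31). Without High-fertile heifer 1 and Infertile heifer 2 together the log2 fold change changed sign for Sub-fertile against High-fertile in CMPK2 (0.025), DDX58 (0.037) and OAS1Z (0.24), for Infertile against High-fertile in IFIT2 (0.064) and IFIT5 (0.016) and for Infertile against Sub-fertile in IFI27 (0.14) and IFI35 (0.037). Within the 8-library set the log2 fold change changed sign for Sub-fertile against High-fertile in CMPK2 (0.54), DDX58 (0.33), IFI35 (0.12), IFI6 (0.24), MX1 (0.50), OAS1X (0.37), OAS1Y (0.29), OAS1Z (0.78), STAT2 (0.038) and ZBP1 (0.18) and for Infertile against Sub-fertile in IFI27 (0.090). With 1 library left out, sign changed for Infertile against High-fertile in IFIT2 (-0.30 to 0.050) and IFIT5 (-0.18 to 0.015). With 1 library left out, sign changed for Sub-fertile against High-fertile in DDX58 (-0.38 to 0.082), IFIT2 (-0.034 to 0.23), IFIT3 (-0.23 to 0.28), RSAD2 (-1.17 to 0.38), CMPK2 (-0.64 to 0.025), OAS1Z (-0.45 to 0.24) and STAT2 (-0.072 to 0.0062). With 1 library left out, sign changed for Infertile against Sub-fertile in IFI27 (-0.77 to 0.40), IFI35 (-0.096 to 0.15), CMPK2 (-0.61 to 0.032), IFI6 (-0.49 to 0.42), IRF9 (-0.40 to 0.12), MX1 (-0.75 to 0.10), OAS1Y (-0.58 to 0.099), RSAD2 (-1.24 to 0.28) and ZBP1 (-0.87 to 0.12). With 1 library left out, Sub-fertile against High-fertile gave 0 to 3 genes called. At an unadjusted p under 0.05 it gave 0 to 11 members, and Infertile against High-fertile gave 0 to 9. Any difference among the 3 classes gave 0 to 10 members at this level, the 10 without Sub-fertile heifer 4. In that fit 3072 of 20154 genes were at this level, against 1681 of 19962 with all 15 libraries. The median log2 fold change, with 1 library left out, was -0.77 to -0.43 for Infertile against High-fertile, -0.41 to 0.063 for Infertile against Sub-fertile and -0.61 to -0.0064 for Sub-fertile against High-fertile. The cause of these changes was not tested. No paired analysis was possible because the labels number no replicates and name no link between heifers of different classes. With 5 heifers a class the precision of each member is limited by the spread between heifers, and a p above the threshold does not show that classes were alike.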

Other observations

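The 10 other genes whose log2 CPM followed the mean of the 30 members most closely over the 15 libraries were picked by Spearman rho, as a description over libraries that share the same few high heifers. They were SP140 (0.954) and SP110 (0.900), nuclear body proteins, HERC6 (0.929), an E3 ligase, PARP12 (0.925), ZNFX1 (0.918), an RNA helicase, JAKMIP3 (0.925), and 4 entries with LOC names. LOC509283, described in the table as the E3 ubiquitin-protein ligase RNF213, had a rho of 0.886 and a log2 fold change of -0.61 for Infertile against High-fertile heifers. LOC101903473 is uncharacterised. LOC618737 and LOC100298356, both described as bone marrow stromal antigen 2, had rho of 0.939 and 0.879, and they were not counted as members. LOC618737 ranged from 2.77 to 17.7 CPM, highest in Sub-fertile heifer 4, and LOC100298356 from 1.11 to 13.8 CPM, highest in High-fertile heifer 2. In Infertile against High-fertile heifers their log2 fold changes were -0.57 and -1.27. Of the 19932 tested genes that are not members, 24 had a rho above 0.8 with the mean of the set.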
